A study of Mus musculus with 52 samples.

Results

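Translation initiation and elongation factors are the proteins that load ribosomes onto mRNA, select the start codon and carry the ribosome along the message. Their genes were taken by symbol: every symbol that begins with Eif1 to Eif6, Eef1 or Eef2, without the eIF2 kinases (Eif2ak) and the eIF4E-binding proteins (Eif4ebp). This gave 56 of the 22417 genes listed. The rule reads symbols only, but it was chosen with earlier results of these data known. By role, 10 encode or are named after eIF1, eIF1A, eIF5, eIF5A, eIF5B and eIF6, 11 eIF2, eIF2B, eIF2A and eIF2D, 14 subunits of eIF3, 13 the eIF4 factors and 8 the elongation factors eEF1 and eEF2. The symbol rule also caught 5 genes whose products are not translation factors in the strict sense, namely Eef2k, Eif4enif1, Eif1ad, Eif4a3 and Eef1e1.

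As background, eIF2 carries the initiator tRNA to the small ribosomal subunit, and its exchange factor eIF2B reloads it with GTP after each round. During stress of the endoplasmic reticulum (ER), the kinase PERK phosphorylates the alpha subunit of eIF2, which blocks eIF2B and lowers initiation on most mRNAs. The eIF4 factors bind the cap and unwind the leader, eIF3 bridges the mRNA and the small subunit, and eEF1 and eEF2 drive elongation. The mRNAs of several of these factors begin with a stretch of pyrimidines, the 5′ terminal oligopyrimidine (TOP) element, through which mTOR signalling controls their translation.

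Ribosome footprints and mRNA were sequenced from mouse embryonic fibroblasts, each time from the ER and the cytosol apart. The cells were exposed to thapsigargin (Tg), which blocks the calcium pump of the ER, for 0.5, 1, 2 or 4 h. Others received 30 min of dithiothreitol (DTT), which reduces disulfide bonds, and were taken at once or after 10 or 20 min of recovery, and a last set stayed untreated. All groups, the untreated one included, carry the genotype CReP+/-; GADD34+/+ (WT), so the control cells also lack 1 working copy of CReP, a subunit of the phosphatase that reverses eIF2 alpha phosphorylation. The labels list 52 samples in 26 groups of 2, 40 of them in the Tg series with the untreated cells and 12 in the DTT series, whose titles name no assay. Whether the fibroblasts are 1 line or several, or which replicates came from separate cultures, is not given in the labels.

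Each group is given as 1 pooled score per gene and fraction, so no difference could be held against the spread between replicates, no test could be run, and the depth behind a value is unknown. Differences are therefore described on the log2(score + 1) scale, on which 1 is 2-fold, and a gene counts as over 2-fold past 1 or below -1. "Rose" and "fell" are used of such genes only. How the authors scaled the scores is not stated, so levels are not compared between genes. Multiplied by 0.913 for the ER and 1.06 for the cytosol, the untreated Tg values give the untreated DTT ones, so every Tg time and the DTT condition share 1 set of untreated data. Because each fraction has its own constant, a difference between ER and cytosol has no absolute zero and is set beside the median of all genes. In such bulk samples, fewer cells of a type and less RNA per cell cannot be told apart.

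The labelled cell type was checked against markers. All 8 fibroblast markers had untreated footprints, Thy1 in the ER alone, summing to a score of 6271 in the ER and 6981 in the cytosol. Most of both sums came from S100a4 (3653 in the ER and 5775 in the cytosol) and Vim (1192 in each). Of 4 epithelial, 4 leukocyte and 3 endothelial markers, 3, 1 and 2 had a value, summing to 0.646, 1.16 and 0.555 in the ER, with no cytosol value. Among the 56 genes, 51 had a footprint score in every column of both tables, against 9323 of all genes in the Tg table and 8315 in the DTT table. Eef1a2, Eif4e3 and Eif5a2 had values in some columns, at scores below 10, and Eif2s3y and Eif4e1b had none. The mRNA columns were sparser, with 38 of the 56 complete for Tg and 35 for DTT, and Eif1 had 1 mRNA value in the Tg table and none in the DTT table. All 56 genes carried FALSE in a column of marks whose meaning is not given, where 8434 genes carried TRUE.

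The mRNA starts of these genes are shown because the TOP element lies there. RefSeq promoter windows (build GRCm38.p6) matched 44 of the 56 symbols, 38 of them with a single listed start. The lines give 30 bases, 10 before the listed start and 20 from it, in lower case, with the longest run of C and T in capitals.
Eef1a1: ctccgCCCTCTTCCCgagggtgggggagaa
Eif3f: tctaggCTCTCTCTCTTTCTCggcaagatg
Eef2: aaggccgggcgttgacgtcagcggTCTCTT
Eef1b2: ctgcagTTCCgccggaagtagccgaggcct
Eif2s3x: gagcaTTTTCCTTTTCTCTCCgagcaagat
Eif4a1: gtaacgTCacgtcgagttgcagagcgccgg
Eif4a2: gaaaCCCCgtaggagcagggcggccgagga
Eef1a1 (chr9:78481705-78481734, minus strand) and Eif3f (chr7:108934405-108934434, plus strand) were on the list of TOP mRNAs from general knowledge and had runs of 10 and 15. Eef2 (chr10:81176621-81176650, plus strand) and Eef1b2 (chr1:63176821-63176850, plus strand) were on it too, with runs of 6, cut by the end of the window, and 4. Eif2s3x (chrX:94212632-94212661, minus strand), not on the list, had the longest run of the 38, at 16. The helicase pair Eif4a1 (chr11:69672404-69672433, minus strand) and Eif4a2 (chr16:23107458-23107487, plus strand) had runs of 2 and 4. A run of at least 8 was present in 7 of the 38 genes, or 18.4%, against 11.2% of all 32851 windows of the same length. Only 1 strand was read, and a run is a feature of these letters and not a mapped TOP element.

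In untreated cells the footprints of most translation factors lay further towards the cytosol than those of other genes. ER minus cytosol had a median of -0.88 over the 51 genes, against -0.48 over all 9323 genes. Of the 51 genes, 10, or 19.6%, were over 2-fold lower in the ER, against 13.6% of all genes, and 1 was over 2-fold higher, against 12.2%. These counts depend on where 0 is put: after centring on the median of all genes, 3 were over 2-fold higher (Eif4g1 at 2.14, Eif3a at 1.45 and Eif4g3 at 1.33), against 14.7% of all genes, and none was lower, against 1.10%. Before centring, the lower ones were led by the eIF2 gamma subunit Eif2s3x (-1.41), the eIF3 subunit Eif3f (-1.26) and the eIF2 alpha subunit Eif2s1 (-1.19). The gene over 2-fold higher was Eif4g1, the scaffold that joins the cap-binding protein to the helicase and to eIF3. Its score was 77.0 in the ER and 23.7 in the cytosol, a difference of 1.66.

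Only 3 further genes lay above 0, namely Eif3a, the largest subunit of eIF3 (96.1 in the ER and 48.8 in the cytosol, 0.96), the Eif4g1 paralogue Eif4g3 (3.87 and 1.71, 0.84) and the exchange factor subunit Eef1b2 (432 and 399, 0.12). Of these genes 3 had mRNA values in both fractions, and the mRNA of Eif4g1 and Eif3a lay the same way as the footprints. Eif4g1 mRNA was at 70.0 in the ER and 24.1 in the cytosol (1.497), and Eif3a mRNA at 308 and 154 (1.00). Eef1b2 mRNA, at 305 and 297 (0.04), lay just below the median of all genes (0.06). Its footprints (0.12) lay above the footprint median of all genes (-0.48). The median mRNA difference of the 38 complete genes was -0.31, against 0.06 over all 2389 genes, with Eif4g1 over 2-fold higher, against 12.1% of all genes, and the cap-binding repressor Eif4e2 lower (-1.36), against 2.76%.

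**Figure D1:**
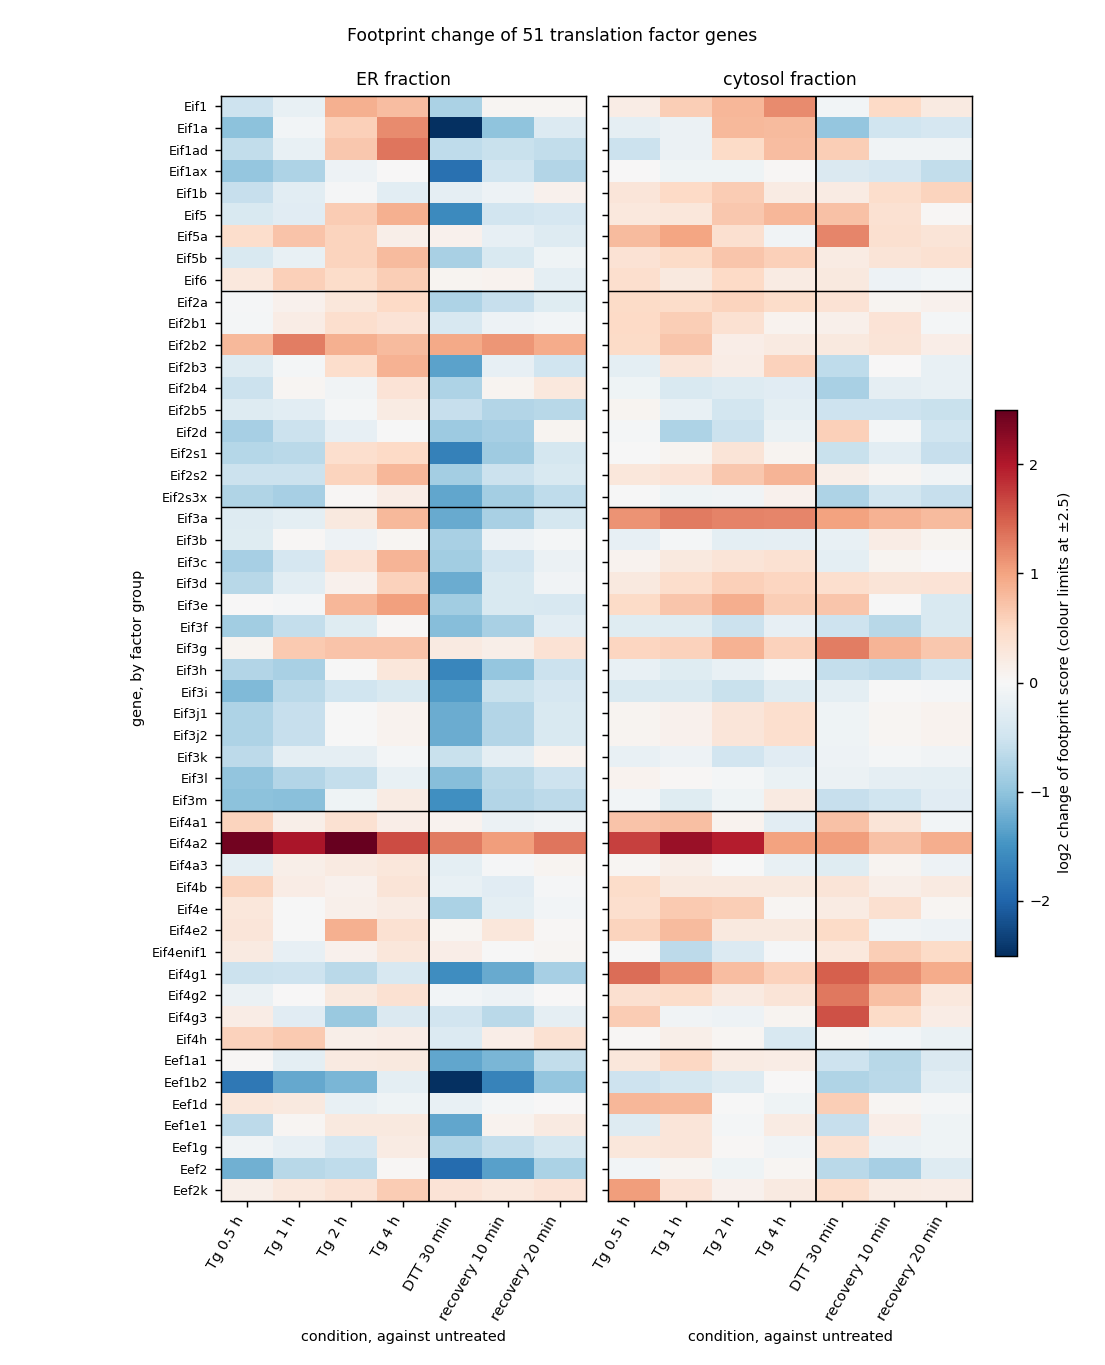
Log2 change of footprint score against untreated cells for the 51 complete genes (one line of cells each, grouped by factor) in the ER fraction (left) and the cytosol fraction (right), for 4 Tg times and 3 DTT conditions (1 pooled value per group). Eif4a2 has the highest value in all 4 Tg columns of the ER, and Eef1b2 and Eif1a reach -3.06 and -2.69 in the ER after 30 min of DTT.

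With Tg, the median ER footprint change of the translation factors was below 0 at first and above 0 later, and cytosol medians were above 0 at all times, though below that of all genes at 0.5 h. In the ER the median change was -0.39 at 0.5 h, -0.21 at 1 h, 0.16 at 2 h and 0.27 at 4 h, beside -0.22, -0.09, 0.05 and 0.16 for all genes. At 0.5 h, 5 genes, or 9.80%, fell over 2-fold, against 14.8% of all genes, and 1 rose, against 4.66%. The fallen genes were Eef1b2 (-1.79), the translocase Eef2 (-1.20), Eif3i (-1.10), the eIF1A gene Eif1a (-1.02) and Eif3m (-1.02). The risen gene was Eif4a2 (2.41), a helicase of the cap-binding complex. After centring on the median of all genes 2 had risen (Eif4a2 and Eif2b2), against 8.15% of all genes, and 1 had fallen (Eef1b2), against 9.12%.

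At 1 h, 2 genes fell (Eef1b2 at -1.28 and Eif3m at -1.04), against 6.49% of all genes, and 2 rose (Eif4a2 at 2.05 and the eIF2B beta subunit Eif2b2 at 1.28), against 5.3%. Centring left the 2 risen genes past 2-fold, against 6.80% of all genes, and Eef1b2 fallen, against 4.78%. At 2 h, Eef1b2 fell (-1.14, with 3.9% of all genes) and Eif4a2 rose (2.49, with 6.88%). At 4 h no gene of the set fell, the lowest being Eif4g1 at -0.41, against 2.08% of all genes. By then 4 had risen, against 5% of all genes: Eif4a2 (1.62), Eif1ad (1.35), Eif1a (1.18) and Eif3e (1.02).

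In the cytosol the medians were 0.18, 0.25, 0.20 and 0.20 at 0.5, 1, 2 and 4 h, beside 0.23, 0.12, 0.15 and 0.03 for all genes. No gene fell over 2-fold at any Tg time, against 0.408%, 2.89%, 1.66% and 2.24% of all genes. At 0.5 h, 4 rose, against 17.5% of all genes: Eif4a2 (1.72), Eif4g1 (1.40), Eif3a (1.13) and Eef2k (1.05), the kinase that inhibits eEF2. At 1 h, 3 rose, against 14.9% (Eif4a2, Eif3a and Eif4g1), at 2 h, 2 rose, against 11.5% (Eif4a2 and Eif3a), and at 4 h, 3 rose, against 5.22% (Eif3a at 1.22, Eif1 at 1.18 and Eif4a2 at 1.01). The lowest was Eif1ad at 0.5 h (-0.54) and Eif4h at 4 h (-0.41). Eef2k was at 13.2 at 0.5 h, against 5.90 untreated, and at 7.70, 6.45 and 7.07 at the later times.

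Under DTT more of the factors fell in the ER than at any Tg time. After 30 min the ER median was -0.80, against -0.25 for all 8315 genes, and 20 of 51 genes, or 39.2%, fell over 2-fold, against 19% of all genes. The 6 lowest were Eef1b2 (-3.06), Eif1a (-2.69), Eef2 (-1.93), the other eIF1A gene Eif1ax (-1.86), Eif2s1 (-1.68) and Eif3h (-1.64). Eif4a2 alone rose (1.31), against 8.07% of all genes. In the cytosol the median was 0.15, or -0.31 relative to the median of all genes (0.46), and none of the 51 fell, against 1.41% of all genes, the lowest being Eif1a at -0.98. There 7 genes, or 13.7%, rose, against 30.3% of all genes: Eif4g3 (1.59), Eif4g1 (1.496), Eif4g2 (1.31), Eif3g (1.29), Eif5a (1.21), Eif4a2 (1.04) and Eif3a (1.00). After centring on the median of all genes the split turned round, with 10 fallen, against 8.44% of all genes, and 2 risen (Eif4g3 at 1.14 and Eif4g1 at 1.04), against 20.0%. The 10 were led by Eif1a (-1.43), Eif2b4 (-1.26), Eif2s3x (-1.23), Eef1b2 (-1.21) and Eef2 (-1.14).

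Counting directions by gene, 19 of the 51 were below 0 in the ER and above 0 in the cytosol after DTT, 23 were below 0 in both, 9 above 0 in both, and none above 0 in the ER alone. After 0.5 h of Tg these counts were 19, 16, 15 and 1. Such counts were not made over all genes, so they do not set the factors apart. The medians of all genes also lay below 0 in the ER and above 0 in the cytosol. They were -0.25 and 0.46 after DTT, and -0.22 and 0.23 after 0.5 h of Tg. When the scores of both fractions were summed before the log, the median change was -0.06 after DTT and -0.02 after 0.5 h of Tg, but such a sum weights the fractions by the authors' separate constants and so has arbitrary weights. The plot of ER against cytosol change shows where each factor group lay.

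**Figure D2:**
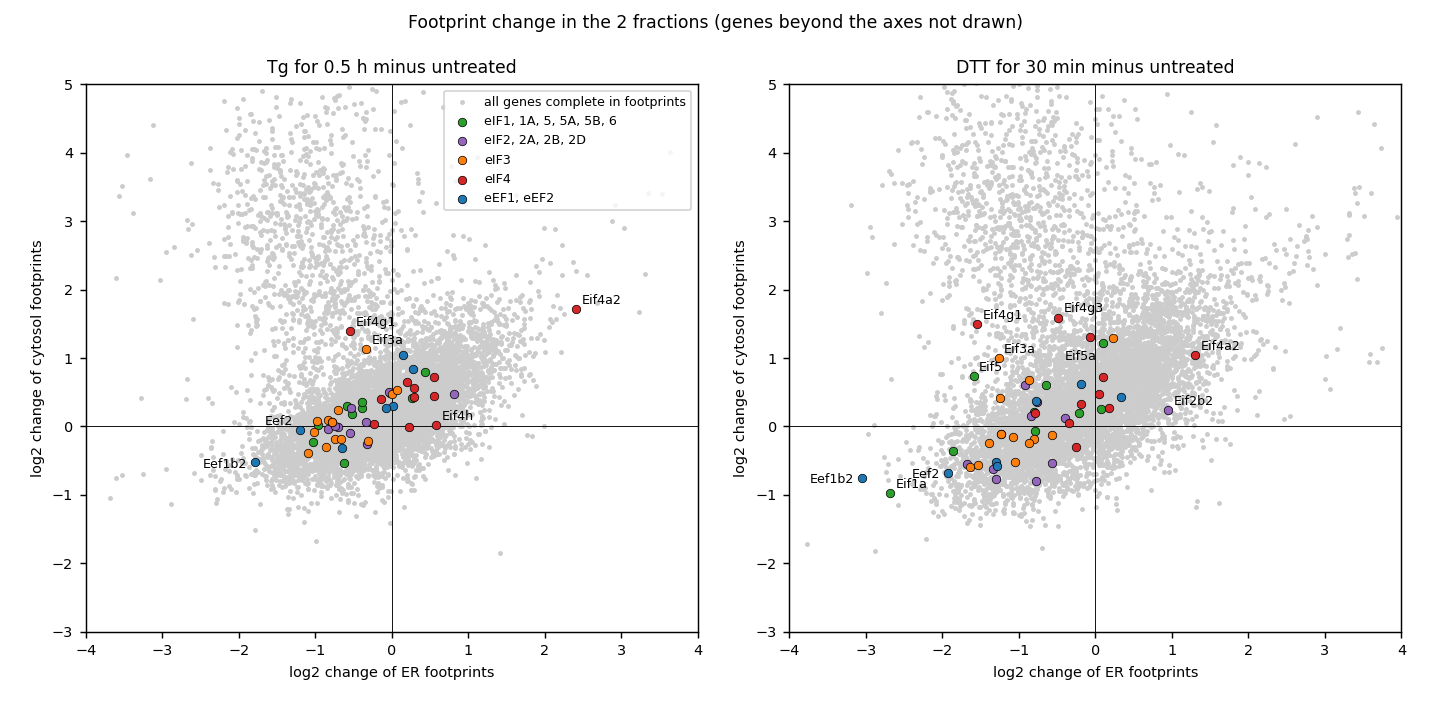
Log2 change of footprints in the ER (x axis) and in the cytosol (y axis) after 0.5 h of Tg (left) and 30 min of DTT (right), against untreated cells; coloured points are the 51 factor genes by group, grey points all complete genes within the axes. Eif4a2 sits alone at the upper right after Tg (2.41 and 1.72), and Eif4g1 and Eif3a lie above 0 in the cytosol and below 0 in the ER after both agents.

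In recovery from DTT most ER footprints were higher than at its end. Compared with the end of DTT, the ER median was 0.34 after 10 min and 0.69 after 20 min, beside 0.17 and 0.34 for all genes. At 10 min 6 genes had risen, against 10% of all genes, led by Eif1a (1.68), Eef1b2 (1.39) and Eef1e1 (1.38). At 20 min 10 had risen, or 19.6%, against 17.4% of all genes, led by Eif1a (2.34), Eef1b2 (2.09), Eef1e1 (1.52) and Eif2s1 (1.25). None had fallen at either time, against 3.52% and 3.58% of all genes, and Eif5a was lowest (-0.30 and -0.42).

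In the cytosol the medians against DTT were -0.07 and -0.08 at 10 and 20 min, beside -0.09 and -0.19. Eif4g3 fell at 10 min (-1.12, with 9.99% of all genes), and at 20 min Eif4g3 (-1.41), Eif2d (-1.10), Eif3e (-1.07) and Eif4g2 (-1.05) fell, against 17.4%. No gene rose there, against 1.19% and 1.21%. Compared with untreated cells, 20 min of recovery left an ER median of -0.24, against 0.03 for all genes, with Eif4a2 the only gene over 2-fold (1.33; 5.92% of all genes rose and 1.08% fell) and Eef1b2 the lowest (-0.96). In the cytosol no gene was over 2-fold against untreated, where 13.9% of all genes rose and 0.192% fell.

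Among the eIF4 factors, which bind the cap and open the leader, ER footprints were on balance higher at 0.5 h of Tg. At that time the median of 11 complete genes was 0.29, with 8 above 0, and after DTT it was -0.18, with 1 risen and 1 fallen, where 8.07% of all genes rose and 19% fell. In the cytosol after DTT 4 of the 11 rose, against 30.3% of all genes, with a median of 0.48, beside 0.46 for all genes. Eif4a2 footprints in the ER were at 34.5 in untreated cells and at 188, 146, 199 and 108 after 0.5, 1, 2 and 4 h of Tg. In the cytosol they were at 72.5 untreated and at 241, 327, 285 and 147 over the same times. Every Tg value was higher than the untreated one in both fractions, and the 4 h values were the lowest of the treated ones.

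Under DTT the ER score of Eif4a2 was 31.5 untreated, 79.3 after DTT, and 65.9 and 80.7 after 10 and 20 min of recovery. The cytosol scores were 76.5, 158, 128 and 145. Eif4a2 thus stayed higher than in untreated cells through recovery, at 1.33 in the ER and 0.91 in the cytosol after 20 min. Its mRNA moved less, with 51.9 in untreated ER and 50.1, 98.4, 106 and 51.8 over the Tg times. The ER mRNA change was -0.05 at 0.5 h, 0.91 at 1 h and 1.01 at 2 h, and -0.42 after DTT. In the cytosol its mRNA changed by 0.70, 0.29, 0.62 and 0.44 over the Tg times and by 0.53 after DTT. The deposited density is the authors' ratio of footprints to mRNA. It lay within 5% of the ratio of the printed scores in 311 of 439 values of these genes in the Tg table and 234 of 340 in the DTT table, and the score ratio ran from 0.606 to 1.36 times the density. For Eif4a2 it was 0.664 in untreated ER and 3.80, 1.48, 2.01 and 2.09 over the Tg times, with a log2 change of 2.52 at 0.5 h. Its cytosol density changed by 0.96, 1.75, 1.53 and 0.48 over the Tg times and by 0.42 after DTT.

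Footprints of the closely related helicase Eif4a1 changed less than 2-fold from untreated at every treated point. Its cytosol score was 1231 untreated and 2025, 2061, 1305 and 1025 over the Tg times (0.72 at 0.5 h), and 2145 after DTT against 1299 untreated (0.72). In the ER the changes were 0.55 at 0.5 h of Tg and 0.10 after DTT. The helicase cofactors Eif4b and Eif4h differed from untreated ER by 0.55 and 0.58 at 0.5 h of Tg, and by -0.18 and -0.35 after DTT. Because Eif4a1 and Eif4a2 are similar in sequence, reads could be split between them, which was not tested.

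**Figure D3:**
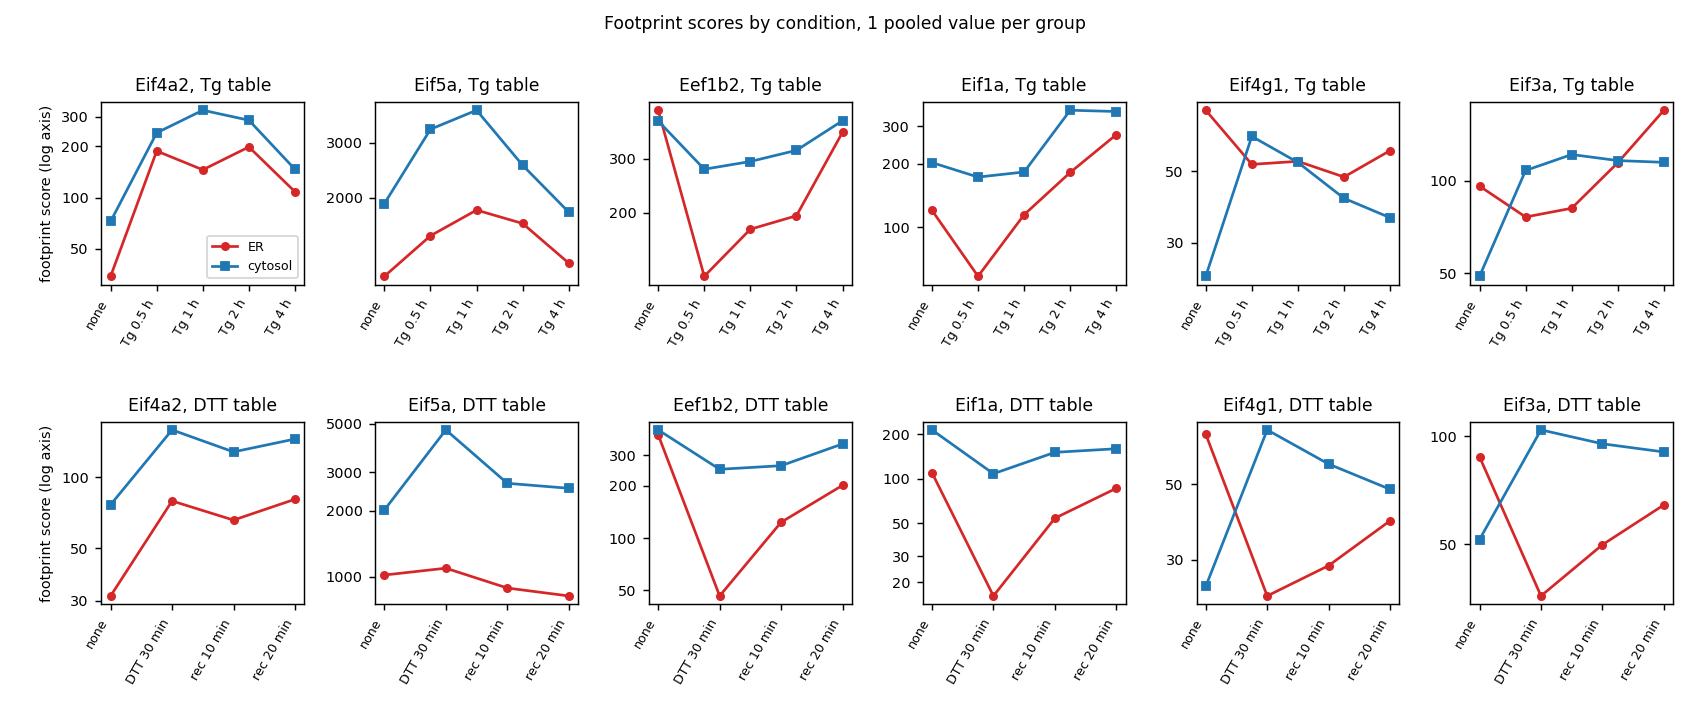
Deposited footprint score on a log axis by condition for 6 genes, in the Tg table (top) and the DTT table (bottom; "rec" is recovery), 1 pooled value per point, with separate axes; red circles are the ER and blue squares the cytosol, and "none" is untreated. Eif4a2 lies above its untreated score at all treated points, and Eef1b2 and Eif1a dip in the ER and climb again. For Eif4g1 and Eif3a the ER score is lower relative to the cytosol score at all treated points than untreated. Where their lines cross depends on the scale of each fraction.

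The scaffold Eif4g1 was lower in the ER and higher in the cytosol than in untreated cells at every treated point. Its ER score was 77.0 untreated and 52.4, 53.6, 47.9 and 57.8 after 0.5, 1, 2 and 4 h of Tg, while its cytosol score was 23.7 untreated and 64.0, 53.1, 41.2 and 35.9. DTT left 23.4 in the ER, against 70.3 untreated, and 72.3 in the cytosol, against 24.998 untreated, which are changes of -1.54 and 1.496. After 20 min of recovery the scores were 39.0 and 48.3. The sum of both fractions after DTT differed from untreated by 0.01 on the log2 scale, with the same arbitrary weights.

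The related Eif4g2, also called DAP5, lacks the part that binds the cap-binding protein. It was near its untreated score in the ER after DTT (55.0, against 57.6 untreated) and rose in the cytosol (299, against 119.8 untreated). Eif4g3 rose in the cytosol at low scores, with 7.46 after DTT, against 1.81 untreated, where the added 1 of the log2 scale understates the change. The cap-binding protein Eif4e was at 122 in the ER after DTT, against 211 untreated (-0.79), and at 534 in the cytosol, against 464 untreated (0.20). Its repressive relative Eif4e2, the Eif4e transporter Eif4enif1 and the exon junction helicase Eif4a3 stayed under 2-fold at all treated times in both fractions.

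**Figure D4:**
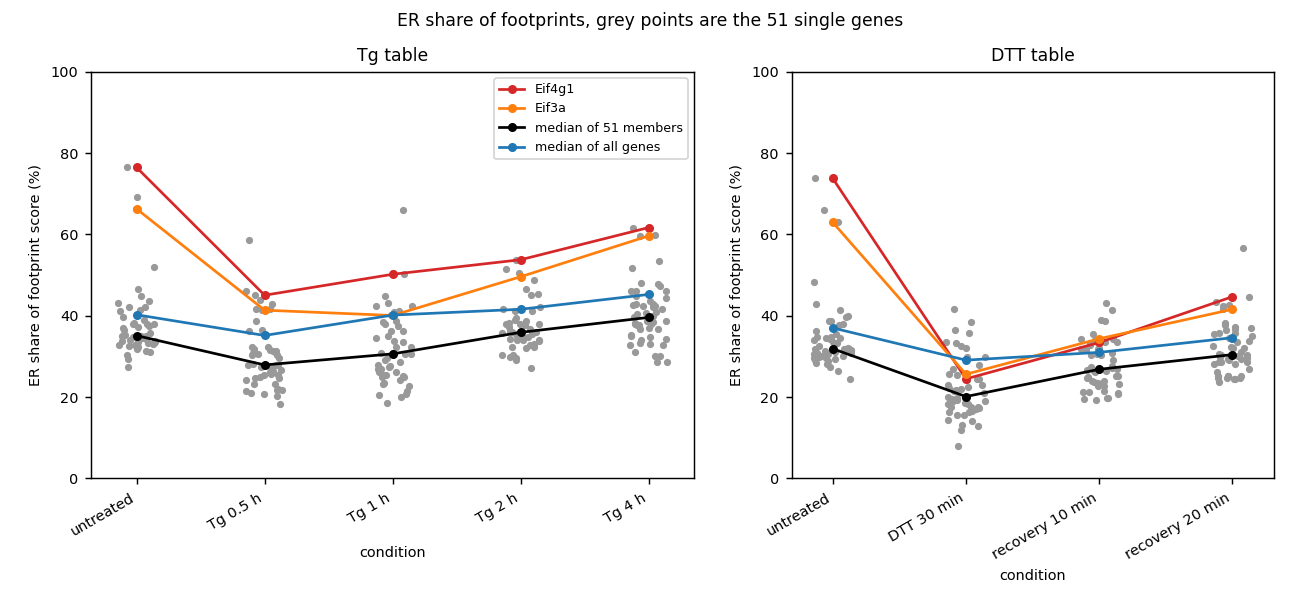
ER share of the footprint score (ER over ER plus cytosol, in %, on the authors' scale) by condition in the Tg table (left) and DTT table (right); grey points are the 51 genes, spread sideways for visibility, and lines join Eif4g1, Eif3a, the median of the 51 genes and the median of all complete genes. Eif4g1 stands at 24.5% after DTT, against 73.8% in untreated cells, where the median of the 51 genes is 20.1% after DTT and 31.9% untreated.

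The ER share of the score was lower than in untreated cells for Eif4g1 and Eif3a at each point given here. Whether a share lies above or below an even split depends on the authors' separate constants. For Eif4g1 it was 76.5% in untreated cells and 45.0%, 50.2%, 53.8% and 61.7% over the Tg times, and for Eif3a 66.3% untreated and 41.4%, 40.1%, 49.6% and 59.6%. In the DTT table Eif4g1 was at 73.8% untreated, 24.5% after DTT, and 33.4% and 44.7% in recovery. The median share of the 51 genes was 35.1% untreated and 27.9%, 30.6%, 35.9% and 39.6% over the Tg times, beside 40.2% untreated and 35.1%, 40.2%, 41.6% and 45.2% for all genes. After DTT it was 20.1%, against 31.9% untreated, beside 29.1% and 37.0% for all genes. As an ER shift, the ER change minus the cytosol change, Eif4g1 had the lowest value of the 51 at each Tg time (-1.94, -1.65, -1.45 and -0.99) and after DTT (-3.04). At 0.5 h of Tg 5 of 51 genes had an ER shift below -1, against 20.7% of all genes. After DTT 23 of 51 genes had an ER shift below -1, against 32% of all genes, and the medians were -0.97 and -0.63. With the near-identical Eif3j1 and Eif3j2 taken once, it was 22 of 50.

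In the group of eIF2, its exchange factor eIF2B, Eif2a and Eif2d, footprint medians after DTT lay below those of all genes in both fractions. Of 10 complete genes 3 fell in the ER after DTT, against 19% of all genes, with a median of -0.81, beside -0.25 for all genes. None rose or fell in the cytosol, against 30.3% and 1.41% of all genes, with a median of -0.20, beside 0.46 for all genes. Eif2d (0.60) and Eif2a (0.36), which belong to neither eIF2 nor eIF2B, had the highest cytosol changes of the 10. After centring on the median of all genes, Eif2b4 (-1.26), Eif2s3x (-1.23), Eif2b3 (-1.08) and Eif2s1 (-1.003) had fallen there, against 8.44% of all genes. Eif2s1, which encodes the alpha subunit that PERK phosphorylates, was at 114 in untreated ER, 34.7 after DTT, and 60.5 and 83.8 in recovery. Under Tg it was at 124 untreated and 76.0, 77.8, 166 and 176. So its ER score was low at the first pair of Tg times and above the untreated value at the later pair.

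The beta subunit Eif2s2 was at 243 in untreated ER and 167, 167, 356 and 435 over the Tg times, and the gamma subunit Eif2s3x at 119 untreated and 70.5, 66.7, 121 and 136. Eif2b2 lay above its untreated score, with 11.6 in untreated ER and 21.1, 29.5, 22.4 and 20.6 over the Tg times, and 21.4 after DTT, against 10.6 untreated (0.95). The eIF2B gamma subunit Eif2b3 was at 7.88 in the ER after DTT, against 21.4 untreated (-1.33). The catalytic eIF2B epsilon subunit Eif2b5 was at 9.46 after DTT, against 14.5 untreated (-0.57), and stayed at 8.64 after 20 min of recovery. Eif2a and Eif2d, which can deliver tRNA to the ribosome without eIF2, changed by -0.77 and -0.92 in the ER after DTT.

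Most eIF3 subunits were lower in the ER at 0.5 h of Tg and after DTT. At 0.5 h of Tg 12 of 14 were below 0, with a median of -0.76, beside -0.22 for all genes. After DTT 13 of 14 were below 0, with a median of -1.15, beside -0.25 for all genes, and 9 had fallen, against 19% of all genes. At the later Tg times they spread, between -0.59 (Eif3l) and 0.83 (Eif3e) at 2 h and between -0.38 (Eif3i) and 1.02 (Eif3e) at 4 h. The exception was Eif3g, at 104 in the ER after DTT, against 88.7 untreated, and at 434 in the cytosol, against 178 untreated. The 9 were Eif3h (-1.64), Eif3m (-1.54), Eif3i (-1.40), Eif3a (-1.27), Eif3d (-1.25), Eif3j1, Eif3j2 (both -1.23), Eif3l (-1.07) and Eif3f (-1.05). Eif3j1 and Eif3j2 are near-identical copies, with scores in a ratio of 0.984 to 0.995 over 18 columns, so they are not separate measurements. With the pair taken once, 8 of 13 eIF3 genes fell in the ER after DTT, and 19 of 50 in the whole set.

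By 20 min of recovery all 14 eIF3 genes were higher than at the end of DTT in the ER, with a median of 0.81. Eif3c, a core subunit, was at 144 in untreated ER and 80.4, 108, 182 and 261 over the Tg times. Eif3f was at 76.1 untreated and 41.3, 50.3, 61.3 and 77.8. Eif3e was at 146 untreated and 147, 142, 259.8 and 297, so it showed no early drop. In the cytosol Eif3a was the only eIF3 gene to rise with Tg, and its score was 48.8 untreated and 108, 122, 116 and 115 over the Tg times, and 104 after DTT, against 51.6 untreated.

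Among the genes that encode or are named after eIF1, eIF1A, eIF5, eIF5A, eIF5B and eIF6, those of eIF1A had the lowest ER changes after DTT. Eif1a was at 109.7 in untreated ER, 16.2 after DTT, and 54.1 and 86.1 in recovery, and under Tg at 120.2 untreated and 58.6, 115, 182 and 274. Eif1ax was at 256, 69.7, 180.4 and 154 in the DTT conditions in the same order. These genes encode nearly the same protein and the shares of reads between them were not tested. Both were below the untreated ER value at each point after DTT, while Eif1a was above it at 2 and 4 h of Tg.

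Eif5, the GTPase activator of eIF2, fell in the ER after DTT (18.01, against 56.4 untreated) while its cytosol score was 207, against 124 untreated. Under Tg its ER score was 61.7 untreated and 47.0, 50.8, 96.4 and 115. Eif1, which guards start codon choice, was at 744 in untreated cytosol and 845, 1133, 1322 and 1682 over the Tg times, and its ER score was 395 untreated and 276, 345, 729 and 677. The 9 complete genes of this group include Eif5a and Eif1ad. Over these 9 genes the Tg 4 h median was 0.78 in the ER and 0.60 in the cytosol, beside 0.16 and 0.03 for all genes. Eif5 mRNA in the ER was at 322 at 4 h of Tg, against 199 untreated (0.69).

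Eif5a, which helps the ribosome through difficult peptide bonds, was at 1913 in untreated cytosol and 3316, 3817, 2539 and 1795 over the Tg times. After DTT it was at 4682 in the cytosol, against 2019.6 untreated (1.21), and at 1096 in the ER, against 1020.1 untreated (0.10). The joining factor Eif5b was at 12.6 in the ER after DTT, against 22.8 untreated (-0.81). Eif6, which keeps large subunits from joining too early, changed by 0.07 in the ER and 0.25 in the cytosol after DTT. Eif5a and Eif1 may share reads with near-identical copies, judged from their families.

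The elongation factors included the lowest ER change of the set, that of Eef1b2. Eef1b2, the exchange factor subunit that reloads eEF1A, was at 432 in untreated ER and 124, 177, 196 and 366 over the Tg times. In the DTT table it was at 395 untreated, 46.5 after DTT, and 124 and 202 in recovery. Its cytosol scores were 399 untreated and 278, 294, 319.8 and 399.5 with Tg, and 249.6 after DTT, against 421 untreated. Every treated ER value was lower than the untreated one, and the 4 h value came closest to it.

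Eef2 was at 507 in untreated ER and 221, 313, 325 and 516 over the Tg times, and at 121 after DTT, against 463 untreated. Eef1a1, which brings aminoacyl-tRNA to the ribosome, had ER scores of 3819 untreated and 3877, 3220.1, 4474 and 4527 with Tg, all within 2-fold. After DTT Eef1a1 fell in the ER to 1409, against 3487 untreated (-1.31), and was at 6013 in the cytosol, against 8635 untreated (-0.52). The other subunits of the eEF1 exchange complex moved less, with Eef1d at -0.19 and Eef1g at -0.78 in the ER after DTT. Eef1e1, a scaffold protein of the tRNA synthetase complex, was at 9.38 in the ER after DTT, against 24.4 untreated (-1.29), and at 25.9 after 10 min of recovery. Eef1a1 has many near-identical pseudogenes, so its values are uncertain.

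The ER mRNA medians of the factors lay close to those of all genes. At 0.5 h of Tg the ER mRNA median of 38 genes was -0.38, as was that of all genes (-0.38), and only Eif2b5 (-1.24) and Eif3i (-1.04) fell, against 11.3% of all genes, while none rose, against 0.335%. After DTT the ER mRNA median of 35 genes was -0.46, beside -0.47, with 7 fallen, against 14.1% of all genes: Eif2b5 (-1.59), Eif4e (-1.51), Eif2s2 (-1.05), Eif4g1 (-1.05), Eif3h (-1.04), Eif4b (-1.02) and Eif3a (-1.001). None rose there, against 1.03%. Of the 6 genes with the lowest DTT footprint changes in the ER, the mRNA changes were -0.27 for Eef1b2, -0.50 for Eif1a, -0.23 for Eef2, -0.61 for Eif1ax, -0.97 for Eif2s1 and -1.04 for Eif3h. After centring on the median of all genes no mRNA had fallen at 0.5 h of Tg, against 3.22% of all genes. After DTT 2 had, against 2.72%.

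In the cytosol, mRNA of the factors was at a median of 0.12 at 0.5 h of Tg, beside 0.27 for all genes, with Eif4g1 (1.09) risen, against 10.4% of all genes. After DTT it was 0.32, beside 0.34, with Eif2a (1.03) risen, against 14.7%. At later Tg times 1 gene at most passed 2-fold in a direction and fraction. In the ER these were Eif5b at 1 h (-1.10; 5.44% of all genes fell), Eif4a2 at 2 h (1.01; 2.89% rose) and Eif2b5 at 4 h (-1.297; 1.72% fell), and in the cytosol Eif3m at 2 h (-1.11; 2.26% fell). None passed in the other directions, where in the ER 1.17% of all genes rose at 1 h, 3.47% fell at 2 h and 6.7% rose at 4 h. In the cytosol these shares were 0.293% fallen at 0.5 h, 3.77% risen and 3.68% fallen at 1 h, 4.23% risen at 2 h, 5.02% risen and 2.26% fallen at 4 h, and 1.5% fallen after DTT. After centring, the risen cytosol genes of 0.5 h of Tg and of DTT were no longer past 2-fold. Eif3h had then fallen after DTT (-1.15), against 4.41% of all genes.

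In recovery the ER mRNA median against DTT was 0.34 at 10 min and 0.35 at 20 min, beside 0.37 and 0.40 for all genes. Eif3g (1.43), Eif2b5 (1.32) and Eif4e (1.03) rose at 10 min, against 7.97% of all genes, and Eif4e (1.01) at 20 min, against 9.66%. None fell, against 0.0938% and 0.797%. Against untreated, 20 min of recovery gave an ER median of -0.23, beside -0.10, with none risen or fallen, against 3.14% and 3.89% of all genes.

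In the cytosol no mRNA passed 2-fold against DTT, where 3.56% of all genes rose and 1.22% fell at 10 min, and 3.94% rose and 2.06% fell at 20 min. Against untreated, 20 min of recovery gave a cytosol mRNA median of 0.33, beside 0.46 for all genes, with Eif4enif1 (1.27) and Eif3l (1.11) risen, against 15.1% of all genes, and none fallen, against 0.188%. After centring neither was past 2-fold and Eif3h had fallen (-1.16), against 3.84% of all genes.

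**Figure D5:**
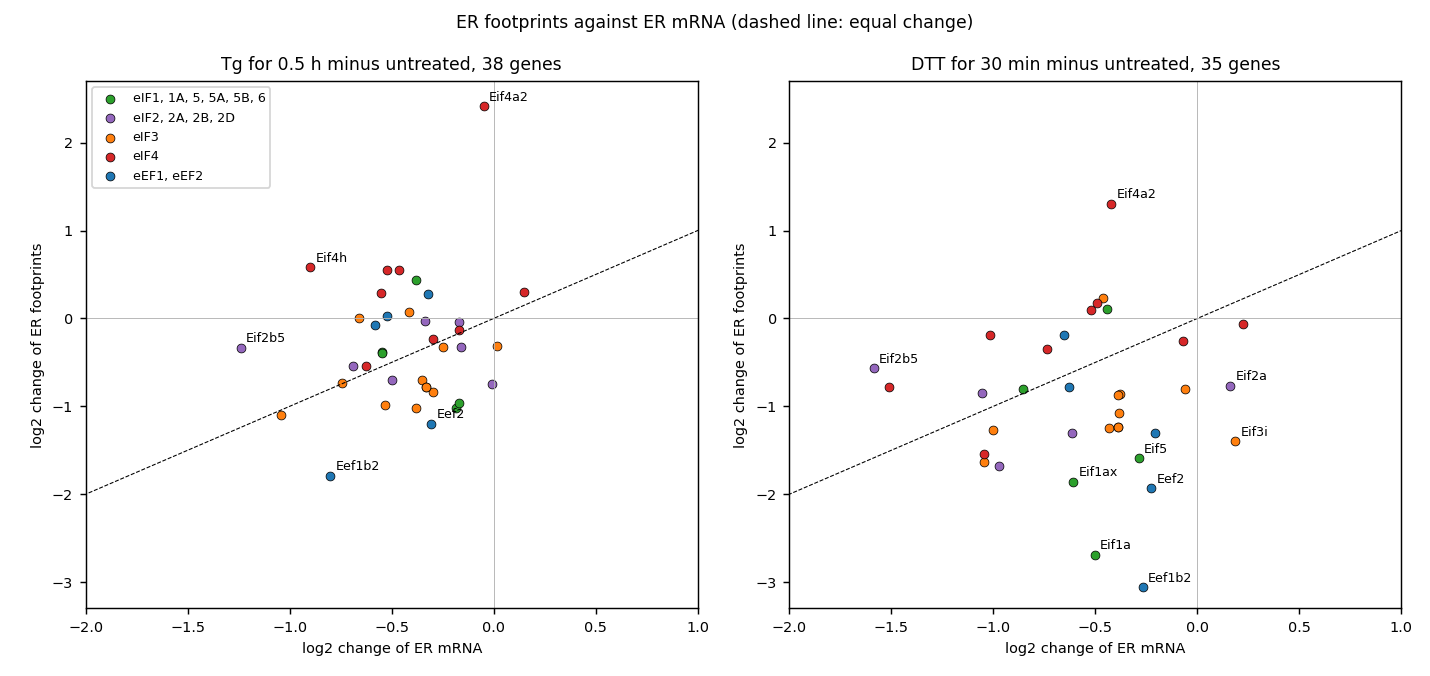
Log2 change of ER footprints (y axis) against log2 change of ER mRNA (x axis) for the factor genes with both measured, after 0.5 h of Tg (left, 38 genes) and 30 min of DTT (right, 35 genes), coloured by factor group; the dashed line marks equal change. Eif4a2 lies above the line on both sides, and Eef1b2, Eif1a and Eef2 lie well below it after DTT.

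The deposited density is the authors' measure of footprints per mRNA, and its changes are on the log2 scale with nothing added. In untreated cells ER minus cytosol density had a median of -0.48, beside -0.64 for all genes, with 8 of 38 genes over 2-fold lower in the ER, against 27.1%, and none higher, against 4.87%. After centring on the median of all genes none was past 2-fold either way, against 9.11% of all genes higher and 5.46% lower. At 0.5 h of Tg in the ER 5 of 38 genes rose, against 11.7% of 2217 genes, and none fell, against 10.4%. These were Eif4a2 (2.52), Eif4h (1.60), Eif4e (1.10), Eif4b (1.08) and Eif2b5 (1.08), and the median of the 9 eIF4 genes was 0.84, against -0.26 for the 12 eIF3 genes. Eif4h density was 2.09 in untreated ER and 6.32, 5.09, 4.14 and 2.34 over the Tg times. Eif4e density was 2.36 untreated and 5.06, 2.997, 3.68 and 2.76. For Eif2b5 the ER footprints differed by -0.33 and the ER mRNA by -1.24.

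At 1 h of Tg 6 genes rose in ER density, against 10.2% of all genes, led by Eif5a (1.30) and Eif4h (1.29), and 3 fell, against 12.2%, namely Eif3m (-1.35), Eif1ax (-1.26) and Eef1b2 (-1.11). At 2 h Eif4a2 (1.60), Eif5b (1.37) and Eif2b3 (1.17) rose, against 9.47%, and Eef2 fell (-1.04, with 6.27%). At 4 h Eif4a2 (1.65), Eif2b5 (1.57) and Eif5b (1.16) rose, against 4.83%, and none fell, against 7.08%. Eif4a2 alone was past 2-fold at all 4 times.

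In the cytosol the median density change of these genes was higher at 1 and 2 h of Tg than at 0.5 and 4 h. At 1 h it was 0.56, beside 0.29 for all genes, and 9 of 38 rose, against 16.1% of all genes. The 6 highest were Eif4a2 (1.75), Eif4e (1.71), the eIF2B alpha subunit Eif2b1 (1.66), Eif4a1 (1.45), Eif3e (1.24) and Eif5b (1.09). None fell, against 4.38%, and the lowest was Eef1b2 at -0.48. At 2 h the median was 0.53, beside 0.21, with 5 risen, against 10.7%, led by Eif3g (1.56) and Eif4a2 (1.53), and none fallen, against 3.92%. After centring on the median of all genes 4 had risen at 1 h, against 8.93%, and 4 at 2 h, against 7.35%. Eif3i had then fallen at 2 h, against 6.09%. At 0.5 h Eif2b1 (1.10) rose, against 8.8%, and Eef1b2 (-1.26) and Eif2b3 (-1.07) fell, against 7.85%. At 4 h Eif5b (1.53) rose, against 4.15%, and Eif3i (-1.03) fell, against 5.1%. Cytosol mRNA of the same genes had medians of -0.27 and -0.21 at 1 and 2 h, beside -0.19 and -0.06.

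After DTT, ER density had a median of -0.44 over 34 genes, beside -0.25 for 1896 genes, with 6 fallen, against 20.3%, and 2 risen, against 10.2%. The fallen genes were Eef1b2 (-2.78), Eif1a (-2.68), Eef2 (-1.64), Eif5 (-1.39), Eif1ax (-1.38) and Eef1a1 (-1.07), and the risen ones Eif4a2 (1.81) and Eif2b5 (1.09). Eef1b2 density was 1.40 in untreated ER, 0.203 after DTT, and 0.519 and 0.909 in recovery. Eif1a density was 0.875, 0.137, 0.527 and 0.987 in that order. In the cytosol Eef1b2 fell after DTT (-1.54, with 13% of all genes), while Eif3g (1.59) and Eif4a1 (1.00) rose, against 16%. After centring, 4 had risen in the ER, against 15.2% of all genes, and 5 had fallen, against 12.9%. In the cytosol 4 had then risen, against 17.7%, and 1 had fallen, against 9.65%.

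In recovery Eif1a (1.95) and Eef1b2 (1.36) rose in ER density against DTT at 10 min, against 7.33% of all genes, while Eif3g (-1.89) and Eif2b5 (-1.47) fell, against 13.1%. At 20 min 5 genes rose, against 15.3%, namely Eif1a (2.85), Eef1b2 (2.17), Eif2a (1.64), Eif5 (1.35) and Eif1ax (1.07), and Eif2b5 fell (-1.11, with 10% of all genes). Against untreated, only Eif4a2 had risen in the ER at 20 min (1.08, with 5.7% of all genes), and none had fallen, against 7.38%.

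In the cytosol the recovery density medians of the set were below 0. At 10 min Eif4g2 fell against DTT (-1.06, with 14.4% of all genes) and none rose, against 2.8%. At 20 min Eif4g1 (-1.39), Eif4g2 (-1.06), Eif3e (-1.04) and Eif4a1 (-1.02) fell against DTT, against 19% of all genes, and none rose, against 2.58%. Against untreated, Eif3l (-1.46), Eif1ax (-1.20), Eef1b2 (-1.10) and Eif3e (-1.09) fell at 20 min, against 11.7%, and none rose, against 5.43%. The medians were -0.28 and -0.11 against DTT, beside -0.25 and -0.26 for all genes, and -0.43 against untreated, beside -0.35. After centring, 1 gene fell at 20 min relative to DTT, against 13.3% of all genes, and 1 relative to untreated, against 3.69%.

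The list of TOP mRNAs came from general knowledge but was chosen with earlier results of these data known, so its contrasts are descriptive only. Its 10 genes, 9 of them with complete footprints, had an ER median of -1.05 after DTT, with 5 fallen. The 42 other complete genes had a median of -0.79, with 15 fallen, where 19% of all genes fell. In the cytosol after DTT the median of the TOP list was -0.52, beside 0.17 for the others and 0.46 for all genes. Eef1d, Eef1g, Eif3e and Eif4b of the list lay above 0 there, at 0.62, 0.37, 0.68 and 0.32, and Eef1b2, Eef2, Eif3h, Eif3f and Eef1a1 below, between -0.75 and -0.52. By the start windows, the 6 complete genes with a run of at least 8 pyrimidines had a cytosol median of -0.52 after DTT and the 29 without one 0.12. Over all genes with a single listed start the medians were 0.46 for 543 genes with a run and 0.45 for 4330 without. Among the footprint comparisons split by run, this cytosol gap of the factors was the widest. For 0.5 h of Tg, factors with a run lay near those without (ER -0.54 beside -0.55, cytosol 0.07 beside 0.10). They lay lower for 4 h of Tg (ER 0.20 beside 0.33, cytosol -0.03 beside 0.22) and for DTT in the ER (-1.06 beside -0.81). Of the factors with a run, Eef1a1 and Eif3f alone were on the TOP list.

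The other genes of the pathway were counted as a list of 29 regulators and helpers, 26 of them complete for Tg and 27 for DTT. In the ER at 0.5 h of Tg 7 fell, against 14.8% of all genes, and 1 rose, against 4.66%, with a median of -0.57. After DTT 10 fell, against 19%, and 1 rose, against 8.07%, with a median of -0.74. The risen gene was Ppp1r15a, which encodes GADD34, at 3.64 and 3.60. The lowest was Pabpc1, the poly(A)-binding protein, at -2.33 and -2.80, and its partner Paip1 was at -1.49 and -2.02. In the cytosol after DTT 4 rose, against 30.3%, and none fell, against 1.41%. The risen genes were Ppp1r15a (3.41), Ppp1r15b (2.55), Pabpc4 (1.91) and Pabpc1 (1.66).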

How the data were processed

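The authors deposited 1 table for Tg and 1 for DTT, per the file headers with footprint and mRNA values per gene in arbitrary units (treated here as a score), a density given as the ratio of the pair, and a TRUE or FALSE mark (unit other). Bowtie is named per the submitters' processing notes, without a version. The genome build and the scaling of the deposited scores are not given in the sources used here. Per the labels' protocols, footprints came from nuclease-digested, pelleted ribosomes and mRNA from rRNA-depleted RNA.

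The 2 replicates of a group are pooled in each column, so the planned tests, which need per-replicate values, were not run, and depth is unknown. Differences were taken on log2(score + 1), or log2 of the density ratio, over genes complete for that measure and table. The 51 comparisons, counts past 2-fold and medians were computed with Python 3.11.15, pandas 2.3.3 and numpy 2.4.6, and figures with matplotlib 3.10.9. The scripts were tested on simulated data. Named genes were a set of main factors, plus up to 6 genes past 2-fold per direction and the highest and lowest of each comparison. Further members were named after their values were seen. Columns of per-sample values left unused numbered 0. The genes, lists and comparisons were chosen with earlier results of these data known. Alternatives were a pseudocount of 0.1, stricter and looser filters, centring on the median of all genes, summed fractions, recomputed density, leaving out the 5 non-factors and, chosen after seeing the data, counting Eif3j1 and Eif3j2 once.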

Additional observations from a re-analysis of the deposited data

Results flagged for a closer look

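Eif3a and Eif4g1 footprints moved in opposite directions past 2-fold in the fractions after 30 min of DTT, and this is why they are listed. For Eif3a the log2 change was -1.27 in the ER and 1.00 in the cytosol. For Eif4g1 it was -1.54 in the ER and 1.496 in the cytosol. After centring on the median of all genes, Eif4g1 was still past 2-fold in both fractions (-1.29 and 1.04). Eif3a was then past it in the ER alone (-1.01). The share of all genes that moved in this way was not counted. The difference between the fractions was not tested, since each value is 1 pooled score.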

How the results depend on the processing

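No paired analysis was possible because each column holds 1 pooled value for both replicates, and for the same reason leaving out a replicate was not run. A value was held to be unmoved when it shifted by under 0.25 on the log2 scale. Among the recomputed medians 301 were unmoved and 21 moved. Centring on the median of all genes gave footprint medians of -0.39 for untreated ER minus cytosol, -0.55 for DTT in the ER and 0.35 for 20 min of recovery against DTT in the ER. In the cytosol it gave -0.31 for DTT and -0.34 for 20 min of recovery against untreated. For mRNA, centring gave 0.00081 and 0.0081 in the ER and -0.15 and -0.0204 in the cytosol for 0.5 h of Tg and for DTT. For recovery mRNA it gave -0.0337 and -0.0447 against DTT in the ER at 10 and 20 min, and -0.13 against untreated in the cytosol at 20 min. For density it gave 0.16 for untreated ER minus cytosol and 0.26 for 1 h of Tg in the cytosol. For 20 min of recovery in the cytosol, density gave 0.15 against DTT and -0.0762 against untreated.

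Summing ER and cytosol scores gave footprint medians of -0.0233 and 0.12 at 0.5 and 1 h of Tg, -0.0565 for DTT, and 0.0668 and 0.0932 for 10 and 20 min of recovery against DTT. The summed score also reversed ER directions, to 0.32 for Eif5, 0.0087 for Eif3a and 0.0072 for Eif4g1 after DTT. It gave -0.16 and -0.41 for Eif5 in recovery at 10 and 20 min against DTT. Among single genes 483 values were unmoved, 112 moved without changing sign, and 5 reversed. Such a sum weights the fractions arbitrarily. Of the counts past 2-fold 556 stayed within 1.5 times and 88 did not. Counting Eif3j1 and Eif3j2 once, chosen after seeing the data, moved none of them. The cause of these shifts was not tested. With no depth and no replicate values, small differences cannot be weighed against error, and low scores such as those of Eif4g3 depend most on the added 1.

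The moved counts follow, each against the count as reported. Centring changed footprint counts for untreated ER minus cytosol to 3 higher against 1 and 0 lower against 10. In the ER it gave 2 risen against 1 and 1 fallen against 5 at 0.5 h of Tg, 1 fallen against 2 at 1 h, 2 risen against 1 after DTT, and 3 risen against 10 at 20 min of recovery against DTT. In the cytosol it gave 2 risen against 4 at 0.5 h of Tg, 2 risen against 7 and 10 fallen against 0 after DTT, and 1 fallen against 4 at 20 min of recovery against DTT. For ER mRNA it gave 0 fallen against 2 at 0.5 h of Tg, 1 risen against 0 and 0 fallen against 1 at 1 h, 2 fallen against 7 after DTT, and 1 risen against 3 and 0 against 1 at 10 and 20 min against DTT. For cytosol mRNA it gave 0 risen against 1 at 0.5 h of Tg, 1 fallen against 0 at 4 h, and 0 risen against 1 and 1 fallen against 0 after DTT. At 10 min of recovery against DTT 1 fell against 0, and at 20 min against untreated 0 rose against 2 and 1 fell against 0. For density it gave 0 lower against 8 for untreated ER minus cytosol. In the ER it gave 2 fallen against 1 at 2 h of Tg, 4 risen against 2 after DTT, and 2 fallen against 1 at 20 min against DTT. In the cytosol it gave 2 risen against 1 at 0.5 h of Tg, 4 risen against 9 at 1 h, 1 fallen against 0 at 2 h and 4 risen against 2 after DTT. In recovery it gave 1 risen against 0 and 0 fallen against 1 at 10 min against DTT, and 1 fallen against 4 at 20 min against both DTT and untreated.

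Summed fractions gave 1 fallen against 5 in the ER at 0.5 h of Tg, 1 risen and 0 fallen against 2 each at 1 h, 0 fallen against 1 at 2 h, 2 risen against 1 and 3 fallen against 20 after DTT, and 0 risen against 6 and 10 at 10 and 20 min against DTT. Against the cytosol counts they gave 1 risen against 4 and 1 fallen against 0 at 0.5 h of Tg, 1 risen against 3 at 1 h, 1 against 2 at 2 h, and 2 risen against 7 and 3 fallen against 0 after DTT. In recovery they gave 0 fallen against 1 and 4 at 10 and 20 min against DTT, and 1 risen against 0 at 20 min against untreated. The strict filter gave 0 fallen against 1 and 2 against 4 for cytosol footprints at 10 and 20 min against DTT. For mRNA it gave 0 fallen against 2 and 1 in the ER at 0.5 and 4 h of Tg, 0 fallen against 1 in the cytosol at 2 h, and 0 risen against 1 and 2 in the cytosol after DTT and at 20 min against untreated. For ER density it gave 1 fallen against 3 at 1 h of Tg, 1 risen against 2 and 2 fallen against 6 after DTT, 0 risen against 2 and 1 fallen against 2 at 10 min against DTT, and 1 risen against 5 and 0 fallen against 1 at 20 min. For cytosol density it gave 1 fallen against 2 at 0.5 h of Tg, 0 against 1 after DTT and 2 against 4 at 20 min against untreated.

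A pseudocount of 0.1 gave 2 against 1 for footprints higher in untreated ER, fallen in the ER at 2 h of Tg and risen in the ER after DTT, 2 against 1 for mRNA higher in untreated ER, and 1 against 0 for cytosol mRNA fallen at 10 min against DTT. Recomputed density gave 0 fallen against 1 in the ER at 20 min against DTT and 0 risen against 1 at 20 min against untreated. In the cytosol it gave 2 risen against 1 and 1 fallen against 2 at 0.5 h of Tg, 1 fallen against 0 at 2 h, 2 fallen against 1 after DTT and 1 risen against 0 at 10 min against DTT. With values needed in the compared columns only, 1 fell against 0 for cytosol footprints at 1 h of Tg, 2 were higher against 1 for mRNA in untreated ER, 2 fell against 1 for ER mRNA at 1 h, and 1 fell against 0 for density in the ER at 4 h and in the cytosol at 2 h. Without the 5 genes that are not translation factors, 1 rose against 2 for cytosol mRNA at 20 min against untreated.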

Other observations

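The mRNA of the same pair also shifted between the fractions. After DTT Eif4g1 mRNA was at 30.4 in the ER, against 63.9 untreated, and at 32.7 in the cytosol, against 25.5 untreated. Eif3a mRNA was at 140.1 in the ER after DTT, against 281 untreated, and at 289.7 in the cytosol, against 162 untreated. As the ER change minus the cytosol change, this gave -1.39 for Eif4g1 mRNA and -1.83 for Eif3a mRNA, beside a median of -0.84 over 35 factor genes and -0.78 over 2133 genes. The lowest mRNA value of the set was that of the eIF2 beta subunit Eif2s2, at -1.87.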
